A study of Mus musculus with 12 samples.

Results

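Netrins and Slits are secreted proteins that steer growing axons and migrating neurons. The genes described here are 10 members of these systems: the netrin gene Ntn1, its receptor genes Dcc, Unc5a, Unc5c and Unc5d, the Slit genes Slit1, Slit2 and Slit3, and the Slit receptor genes Robo1 and Robo2. They were chosen by name, with earlier results of these data known. All 10 had a probe set among the 25428 of the deposited table, which holds 1 probe set per gene. Striatal tissue was profiled on 12 arrays at embryonic day 18.5 (E18.5), 6 from wild-type (WT) mice and 6 from Nestin-Cre (Foxp1-/-) mice, called cKO here, all on the C57BL/6J background. Nestin-Cre acts in neural progenitors, so Foxp1, a forkhead transcription factor of striatal projection neurons, was targeted in the neural cells of the brain and not in 1 cell type. The labels do not say whether WT animals carried Cre or a targeted Foxp1 allele, nor which exons were deleted.

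Netrin-1 attracts axons through Dcc, a transmembrane receptor of the immunoglobulin superfamily. Unc5 receptors, alone or together with Dcc, turn the response to netrin into repulsion. Slits bind Robo receptors and mostly repel, and in the embryonic forebrain both systems help to route cortical, thalamic and dopaminergic axons through or around the striatum.

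In the cKO striatum 2 of the 10 genes rose, Dcc and Slit3, and 0 fell, against 0.728% of all probe sets called in either direction and 0.299% called higher. A call is a limma adjusted p below 0.05, with the Benjamini-Hochberg adjustment over all probe sets. Dcc was 1.30-fold higher and Slit3 1.23-fold higher in cKO. Both were higher on all 6 cKO arrays than on any WT array, which was the case for 0.562% of all probe sets. Groups without overlap in either direction made up 1.38%. Called genes were more frequent among brighter probe sets: 170 of the 12714 above the median level passed (1.34%), and all 10 genes lay in that part. At an unadjusted p below 0.05, 3 of the 10 passed, all of them higher, against 10.7% of all probe sets: 5.06% passed as higher and 5.67% as lower. The median change of the 10 genes was 0.086 log2 units, and that of all probe sets -0.00077. Because the 10 genes were chosen with earlier results known, these shares describe them and do not test them as a set.

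Sequences are shown for Slit3, which was called, and for the microRNA that it shares with Slit2. By coordinates in the RefSeq annotation (GRCm38.p6), 4 of the 10 genes span a microRNA gene: Ntn1 spans Mir6406, Robo2 spans Mir691, and the Slit genes span copies of Mir218. Mir218-1 lies inside Slit2 and Mir218-2 inside Slit3, and miR-218 is known as a repressor of Robo1. The 5p strand has the same sequence from both hosts, and the 3p strands differ. The seed, bases 2 to 8, is in capitals.
mmu-miR-218-5p: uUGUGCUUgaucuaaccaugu
mmu-miR-218-1-3p: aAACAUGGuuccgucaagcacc
mmu-miR-218-2-3p: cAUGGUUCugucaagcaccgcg
The 5p strand lies at chr5:48223966-48223986 in Slit2 and at chr11:35616840-35616860 in Slit3, both on the plus strand.

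The bases directly upstream of the Slit3 start (RefSeq, GRCm38.p6, chr11:35121206-35121455, plus strand) are printed as the promoter of the called member for which a window was at hand, with CG dinucleotides in capitals.
Slit3 promoter: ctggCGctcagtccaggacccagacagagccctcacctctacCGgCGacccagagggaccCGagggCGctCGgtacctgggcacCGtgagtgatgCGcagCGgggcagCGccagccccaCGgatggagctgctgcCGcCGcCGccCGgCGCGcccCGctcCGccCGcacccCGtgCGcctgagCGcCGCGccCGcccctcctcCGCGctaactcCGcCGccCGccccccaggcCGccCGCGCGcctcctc
The stretch holds 35 CG dinucleotides in 250 bases. Windows of 300 bases, from 250 before to 50 after the start, were at hand for 6 of the 10 genes (Unc5a, Unc5c, Robo1, Robo2, Slit2 and Slit3), 8 windows in all because Robo2 has 3 starts. In the whole Slit3 window there were 41 CG dinucleotides, as many as or more than in 97.0% of 32851 mouse windows, whose median was 7. Those of the uncalled genes held 37 (Unc5a), 30 (Slit2), 24 (Unc5c), 15 (Robo1) and from 5 to 17 (Robo2). The forkhead motif TGTTTAC, searched on both strands with GTAAACA as its reverse complement, was found in 0 of these 8 windows and in 3.65% of all windows of that length. This says only that these letters are not in these windows.

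All values below are RMA expression on the log2 scale, and every change is the cKO mean minus the WT mean, in log2 units, ± its standard error (SE) from limma. Array medians were 5.71, and arrays correlated at 0.992 to 0.998 with each other. Foxp1 fell by 0.91 ± 0.07 (SE), and all 6 cKO arrays (10.14 to 10.36) lay below the WT arrays (10.89 to 11.39). Of 20 measured marker genes of striatal projection neurons, among them Bcl11b, Isl1 and Penk, 0 lay below the array median. The number of arrays limits the precision, and RMA compresses differences close to the lower end of the scale. Levels of different genes are not compared, since each probe set has its own brightness. In whole tissue, a change in the number of cells that express a gene and a change in the RNA per cell cannot be told apart.

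**Figure D1:**
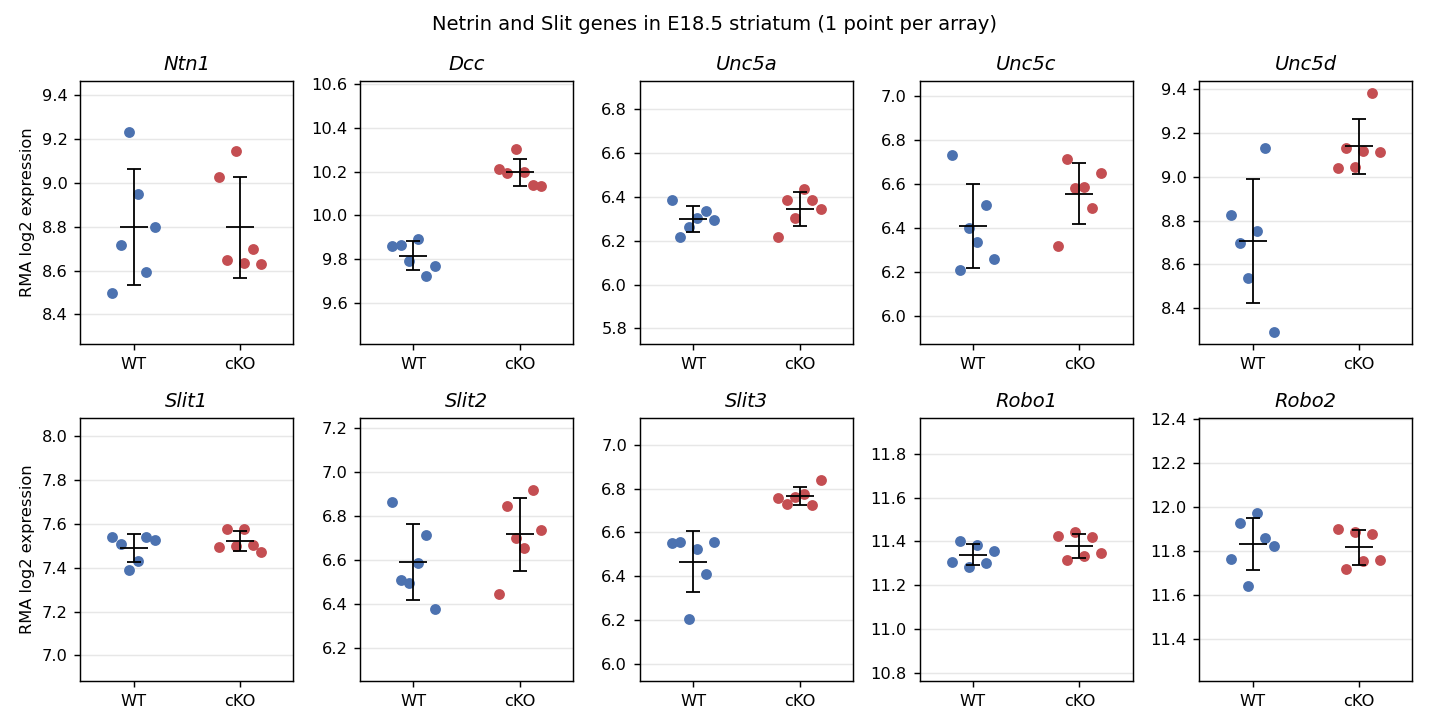
RMA log2 expression of the 10 genes on each array, with 1 point per array, WT in blue and cKO in red, and bars for the mean ± SD (n = 6). Every panel spans the same width on the log2 scale. The groups are apart for Dcc (9.72 to 9.89 in WT, 10.13 to 10.30 in cKO) and Slit3 (6.21 to 6.56 in WT, 6.73 to 6.84 in cKO) and overlap in the other panels.

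Among the netrin genes, the ligand gene Ntn1 was at the same mean level in both groups. Ntn1 read 8.50, 8.72, 9.23, 8.95, 8.60 and 8.80 on WT arrays 1 to 6 and 9.03, 8.65, 9.15, 8.63, 8.70 and 8.63 on cKO arrays 1 to 6. The groups overlapped fully, and in each a few arrays stood high, WT 3 among them and cKO 1 and 3. The WT mean of 8.80 ± 0.26 (SD, n = 6) and the cKO mean of 8.80 ± 0.23 (SD, n = 6) gave a change of -0.0020 ± 0.13 (SE) with a 95% interval from -0.29 to 0.29 (limma adjusted p = 0.998). With this spread a change as large as that of Dcc would lie outside the interval, while one of 0.25 would not.

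Dcc, the attractive netrin receptor, gave the clearest difference of the 10 genes. It read 9.86, 9.87, 9.79, 9.89, 9.72 and 9.77 on WT arrays 1 to 6. On cKO arrays 1 to 6 it read 10.21, 10.19, 10.30, 10.20, 10.14 and 10.13. The lowest cKO array was thus above the highest WT array, and both groups were tight, with cKO 3 the highest of all. Dcc rose from 9.82 ± 0.06 (SD, n = 6) to 10.20 ± 0.06 (SD, n = 6), a change of 0.38 ± 0.03 (SE) with a 95% interval from 0.30 to 0.45 (limma adjusted p = 0.000406). Its p was the 10th smallest of 25428, and the exact two-sided permutation p over 924 assignments of the arrays was 0.00216, the smallest they can give.

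Unc5d, a repulsive netrin receptor that also binds Flrt proteins, had the largest change of the 10 and missed the threshold. It read 8.83, 8.70, 8.54, 8.75, 9.13 and 8.29 on WT arrays and 9.04, 9.13, 9.04, 9.12, 9.38 and 9.11 on cKO arrays, in replicate order. All 6 cKO arrays were above the WT mean, and WT 5 reached into the cKO range. The means were 8.71 ± 0.28 (SD, n = 6) and 9.14 ± 0.13 (SD, n = 6), a change of 0.43 ± 0.12 (SE) with an interval from 0.18 to 0.69 (limma adjusted p = 0.154, exact permutation p = 0.0130 unadjusted). Without WT replicate 5 the change was 0.52 ± 0.10 and passed (limma adjusted p = 0.0396). Without WT replicates 3 and 6, the arrays that correlated least with their group, it was 0.29 ± 0.09 (limma adjusted p = 0.336).

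The other Unc5 genes did not pass the test. Unc5c lay between 6.21 and 6.73 on WT arrays and between 6.32 and 6.71 on cKO arrays, with medians of 6.37 and 6.58. Its arrays overlapped, WT 1 being the highest of all, and the change was 0.15 ± 0.09 (SE, interval -0.05 to 0.35, limma adjusted p = 0.603). Unc5a lay between 6.22 and 6.39 on WT arrays and between 6.22 and 6.44 on cKO arrays, a change of 0.05 ± 0.04 (SE, interval -0.04 to 0.13, limma adjusted p = 0.719). The levels of both were within 1 log2 unit of the array median, where small changes are compressed.

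Genes of the same role (netrin receptor, Slit receptor or Slit ligand) were also compared within each array, through the difference of their log2 values, over all 10 pairs. Only the change of a difference between the groups is read, since each probe set has its own brightness. The differences use the same values as the fits of single genes, so their tests are not independent of the calls. The difference of Dcc minus Unc5a averaged 3.52 ± 0.09 (SD, n = 6) over WT arrays, and over cKO arrays 3.85 ± 0.12 (SD, n = 6). Dcc thus gained 0.33 on Unc5a (exact permutation p = 0.00216, 0.0108 adjusted over the 10 pairs). Since Unc5a itself changed by 0.05, this largely restates the rise of Dcc. Unc5d gained 0.39 on Unc5a, with overlapping arrays (exact permutation p = 0.0108, 0.0361 adjusted over the 10 pairs). This in turn largely restates the change of Unc5d, which missed the threshold over all probe sets (limma adjusted p = 0.154). Dcc and Unc5d differed in their change by 0.05 with overlapping arrays (exact permutation p = 0.729). The gain of Dcc on Unc5c was 0.23 (exact permutation p = 0.0584, adjusted 0.117). Unc5a lies nearer the compressed end of the scale than Dcc and Unc5d, and the part of this in its smaller change was not tested.

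**Figure D2:**
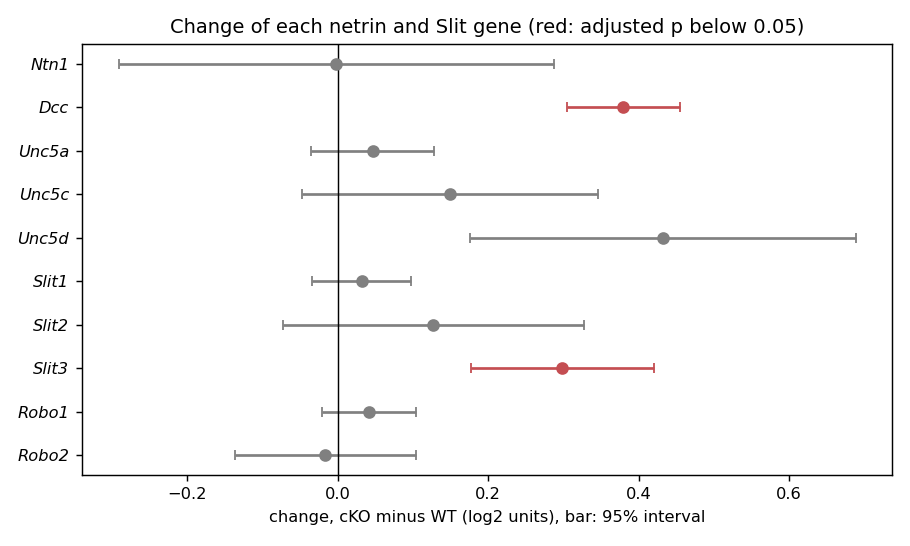
Change of each of the 10 genes, cKO minus WT in log2 units, with 95% intervals, and red for the genes past the adjusted threshold. The intervals of Dcc (0.30 to 0.45), Unc5d (0.18 to 0.69) and Slit3 (0.18 to 0.42) lie above 0, and those of the other 7 genes, Ntn1 and Robo2 among them, include 0.

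Among the Slit ligands, Slit3 rose and its paralogues gave no call. Slit3 read 6.55, 6.56, 6.21, 6.52, 6.41 and 6.55 on WT arrays 1 to 6 and 6.76, 6.73, 6.76, 6.78, 6.73 and 6.84 on cKO arrays 1 to 6. The cKO arrays were close together and all above WT, while WT 3 stood low. The means were 6.47 ± 0.14 (SD, n = 6) and 6.77 ± 0.04 (SD, n = 6), a change of 0.30 ± 0.06 (SE) with an interval from 0.18 to 0.42 (limma adjusted p = 0.0341, exact permutation p = 0.00216). Its p was the 141st smallest of all probe sets. Like Unc5a and Unc5c, Slit3 had a WT mean within 1 log2 unit of the array median, where small changes are compressed. The WT mean of Slit2 (6.59) lay in that range as well.

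The size of the Slit3 change was steadier than its call. Without WT replicate 3 it was 0.25 ± 0.03 (limma adjusted p = 0.00433). The call was lost without WT replicate 4 or 5 (limma adjusted p = 0.0576 and 0.0699) and without any one of the cKO arrays 1 to 6 (0.0758, 0.0715, 0.0810, 0.0624, 0.0758 and 0.0856). Over these 12 fits the change stayed between 0.25 and 0.32, and Slit3 passed in 4 of them. For Dcc the change lay between 0.36 and 0.39, and it passed in 12 of 12.

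Slit1 read 7.54, 7.51, 7.39, 7.43, 7.54 and 7.53 on WT arrays and 7.49, 7.58, 7.50, 7.58, 7.51 and 7.47 on cKO arrays, in replicate order. Its groups overlapped and were both narrow, so that its change of 0.03 ± 0.03 (SE) had an interval from -0.03 to 0.10 (limma adjusted p = 0.765). Slit2 varied more, between 6.38 and 6.86 on WT arrays and between 6.44 and 6.92 on cKO arrays, with a change of 0.13 ± 0.09 (SE, interval -0.07 to 0.33, limma adjusted p = 0.676). Within arrays, Slit3 gained 0.27 on Slit1: the difference of Slit1 minus Slit3 averaged 1.02 ± 0.11 (SD, n = 6) over WT arrays, and over cKO arrays 0.76 ± 0.07 (SD, n = 6) (exact permutation p = 0.00216, adjusted 0.0108). With Slit1 changing by 0.03, this largely restates the rise of Slit3. The gain of Slit3 on Slit2, 0.17, missed the threshold (exact permutation p = 0.160, adjusted 0.222).

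The microRNA genes inside Slit2 and Slit3 were looked up after the data were seen. The Mir218-2 probe set, inside Slit3, lay between 5.38 and 5.43 on WT arrays and between 5.39 and 5.43 on cKO arrays, with a change of 0.01 ± 0.01 (SE, limma adjusted p = 0.765). The Mir218-1 probe set, inside Slit2, had a change of 0.03 ± 0.03 (SE, limma adjusted p = 0.783). The group means of both lay below the array median of 5.71, at the end of the scale where little change can be seen, and they do not measure the mature strands printed above.

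The Slit receptor genes gave no call. Robo1, whose product is one of the main Slit receptors of forebrain axons, read 11.30, 11.40, 11.29, 11.38, 11.30 and 11.36 on WT arrays and 11.42, 11.32, 11.44, 11.33, 11.42 and 11.35 on cKO arrays. The change was 0.04 ± 0.03 (SE) with an interval from -0.02 to 0.10 (limma adjusted p = 0.652). Robo2 read 11.77, 11.93, 11.64, 11.97, 11.86 and 11.82 on WT arrays and 11.90, 11.72, 11.89, 11.75, 11.88 and 11.76 on cKO arrays. Its groups overlapped as well, with a change of -0.02 ± 0.05 (SE) and an interval from -0.14 to 0.10 (limma adjusted p = 0.947). Neither interval reaches the 0.25 by which Slit3 changed at the least in the fits above.

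In the cKO group Robo1 and Robo2 shared their high and low arrays, while in WT they did so in part. In cKO both were higher on arrays 1, 3 and 5 than on arrays 2, 4 and 6, and in WT both were lowest on array 3, but WT 5 was among the lower arrays for Robo1 (11.30) and the higher ones for Robo2 (11.86). The difference of Robo1 minus Robo2 averaged -0.49 ± 0.08 (SD, n = 6) over WT arrays, and over cKO arrays -0.44 ± 0.03 (SD, n = 6). In cKO its SD was below those of Robo1 (0.05) and Robo2 (0.08) alone, while in WT it lay between that of Robo1 (0.05) and that of Robo2 (0.12). That difference did not separate the groups (exact permutation p = 0.136, adjusted 0.222).

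Other genes of both systems were counted from 4 lists with 54 genes, of which 52 were measured, Ptk2 and Pak1 being left out. In all, 1 of the 52 rose and 1 fell, against 0.299% and 0.429% of all probe sets, and the median change was -0.0051. Both calls were among 9 further ligands. Rgmb, a ligand of the Dcc relative neogenin, rose by 0.17 ± 0.03 (SE), with the lowest cKO array at 9.90 and the highest WT array at 9.89 (limma adjusted p = 0.0341). Nell2, a secreted ligand of Robo receptors, fell by 0.19 ± 0.03 (SE), with cKO arrays from 10.65 to 10.82 below WT arrays from 10.88 to 10.99 (limma adjusted p = 0.0129). Nell2 passed in 12 of 12 fits with 1 array left out and Rgmb in 3 of 12, those without WT replicate 1 or 6 or cKO replicate 4. Without the others its limma adjusted p ran up to 0.0869, at changes from 0.15 to 0.20 over the 12 fits.

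The Flrt ligands of Unc5 receptors, named after their values were seen, had negative changes without a call. Flrt3 was -0.41 ± 0.10 (SE, limma adjusted p = 0.118) and Flrt2 was -0.27 ± 0.06 (SE, limma adjusted p = 0.0753), each with all 6 cKO arrays below WT, as for 0.822% of all probe sets. Of 23 alternative fits Flrt3 passed in 4 and Flrt2 in 2. Flrt3 passed without WT replicate 3, at -0.31 ± 0.06 (limma adjusted p = 0.0390). In the same list Rgma had 0.12 ± 0.03 (SE, limma adjusted p = 0.190) and Ntn4, a netrin of basement membranes, 0.10 ± 0.04 (SE, limma adjusted p = 0.335). The median of the list was 0.012, with members on both sides of 0.

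Of the 5 further receptors 0 passed, against 0.728% of all probe sets, and 0 were below an unadjusted limma p of 0.05, against 10.7%. Neo1, the gene of neogenin, had 0.08 ± 0.05 (SE, limma adjusted p = 0.634) and Unc5b had -0.03 ± 0.02 (SE, limma adjusted p = 0.704). Of 20 genes that act downstream of netrin receptors 0 passed in limma. At an unadjusted p below 0.05 there was 1, higher in cKO, against 10.7% of all probe sets. The smallest p values were those of Dock1, a Rac activator (0.09 ± 0.03, adjusted p = 0.320), and Trim67 (-0.11 ± 0.05, adjusted p = 0.489). Of 18 genes of Slit-Robo signalling 0 passed in limma. At an unadjusted p below 0.05 there were 2, Ext1 higher and Srgap2 lower, which is near the 10.7% of all probe sets. Ext1 is an enzyme of heparan sulfate synthesis (0.11 ± 0.05, adjusted p = 0.454), and Srgap2 encodes a GTPase-activating protein that binds Robo (-0.11 ± 0.04, adjusted p = 0.386). Changes in both signalling lists thus lay between -0.11 and 0.11, while those of the ligands reached from -0.41 to 0.17.

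**Figure D3:**
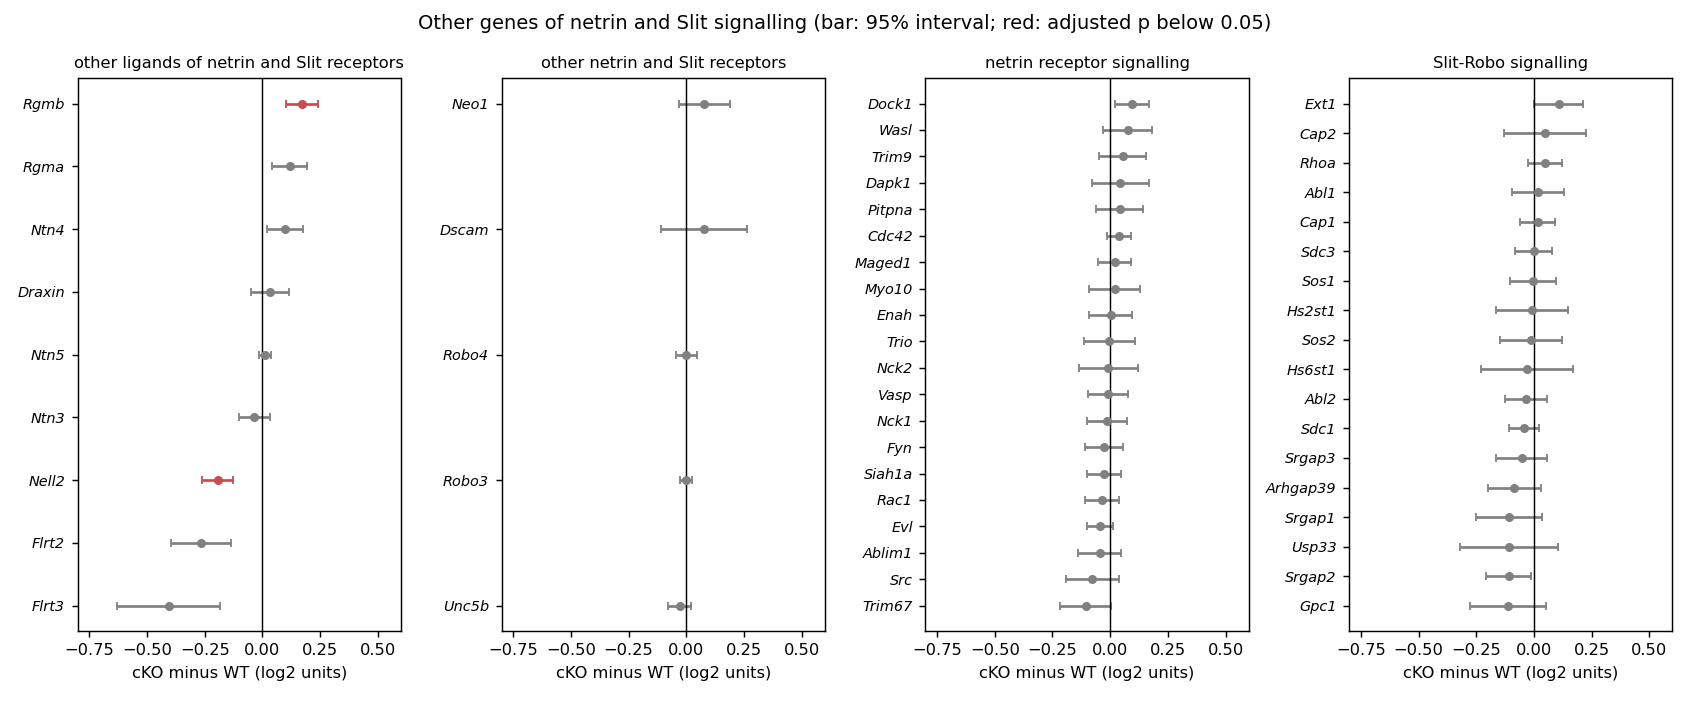
Change of 52 other genes of netrin and Slit signalling in 4 lists, cKO minus WT in log2 units, with 95% intervals, and red for genes past the adjusted threshold. The 2 calls, Rgmb (0.17) and Nell2 (-0.19), are both ligands, and the receptor and signalling panels hold no call.

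For each called gene the genes with the most similar pattern were sought, by the root mean square difference between deviations from the own WT mean over the 12 arrays. For Dcc these were Tle4, a corepressor (0.078 log2 units), Mark1, a kinase of microtubule-associated proteins (0.081), and Wls, which is needed for Wnt secretion (0.091). For Slit3 they were Mark1 (0.059), Ndst3, a heparan sulfate-modifying enzyme (0.076), and Tle4 (0.078). The deviations of Dcc and Slit3 themselves had root mean squares of 0.27 and 0.23, so the neighbours followed them to within a fraction of their change. The likeness includes the group difference: all these genes were called higher in cKO, by 0.29 (Tle4), 0.30 (Mark1), 0.37 (Wls) and 0.39 (Ndst3). Tle4 is also in the cortical marker list given next.

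**Figure D4:**
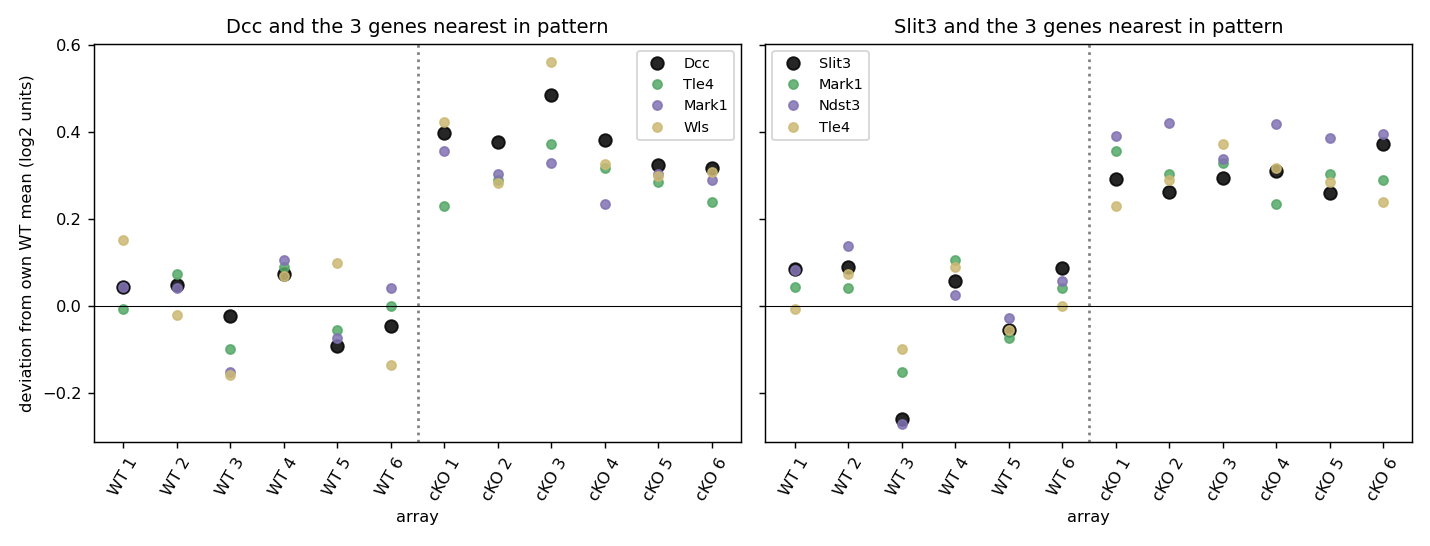
Deviation from the own WT mean, in log2 units, on each of the 12 arrays for Dcc (left, black) and Slit3 (right, black) with their 3 nearest genes by root mean square difference (coloured). All 4 genes of each panel are higher on every cKO array than on every WT array. Every gene shown except Dcc is lowest on WT 3.

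Markers of other cells were read on the same arrays. Of 14 cortical glutamatergic neuron genes 1 rose, Tle4, against 0.299% of all probe sets. A positive change was seen in 13, with a median of 0.084 against -0.00077 for all probe sets. At an unadjusted limma p below 0.05 there were 3 higher and 0 lower, against 5.06% and 5.67% of all probe sets. The mean level of the 14 genes ran from 6.50 to 6.85 over WT arrays and from 6.55 to 6.96 over cKO arrays, with 2 of the 14 below the array median. With the mean of Neurod2, Neurod6, Tbr1 and Slc17a7 as a covariate, the change of Dcc was 0.43 ± 0.03 (limma adjusted p = 0.000749), that of Slit3 0.27 ± 0.07 (limma adjusted p = 0.200) and that of Unc5d 0.34 ± 0.14 (limma adjusted p = 0.471). With it Nell2 had -0.18 ± 0.04 and missed the threshold (limma adjusted p = 0.101), and Rgmb passed at 0.21 ± 0.03 (limma adjusted p = 0.0444).

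Of 18 genes of dividing progenitors and radial glia 1 rose, the mitotic kinase gene Aurkb (0.22 ± 0.04), against 0.299% of all probe sets. A positive change was seen in 17, with a median of 0.10 against -0.00077 for all probe sets. At an unadjusted limma p below 0.05 there were 6 higher and 0 lower, against 5.06% and 5.67% of all probe sets. Array means lay between 8.09 and 8.34 on WT arrays and between 8.21 and 8.39 on cKO arrays. Of 20 projection neuron genes 2 fell, Pde10a (-0.59 ± 0.09) and Ikzf1 (-0.59 ± 0.07), against 0.429% of all probe sets, while 10 had a positive and 10 a negative change. At an unadjusted limma p below 0.05 there were 5 higher and 8 lower in this list, against 5.06% and 5.67% of all probe sets. Its array means lay between 8.84 and 9.05 on WT arrays and between 8.78 and 8.92 on cKO arrays. Of 13 septal, pallidal and interneuron genes 1 rose, Maf (0.57 ± 0.09), against 0.299% of all probe sets. At an unadjusted limma p below 0.05 this list held 1 higher and 0 lower, against 5.06% and 5.67% of all probe sets. Its array means ran from 7.32 to 7.50 over WT arrays and from 7.45 to 7.51 over cKO arrays. The part of these cells in the results was not tested. Of 12 astrocyte and oligodendrocyte genes, 10 endothelial and pericyte genes, 8 microglial genes and 10 genes of meninges and choroid plexus, 0 were called in limma, and at an unadjusted p below 0.05 there were 7 of these 40, with 2 higher and 5 lower, against 10.7% of all probe sets. The choroid plexus gene Ttr was at 9.96 on cKO array 1 and from 5.39 to 5.57 on the WT arrays. Its other cKO arrays lay within that WT range. The choroid plexus genes Folr1 (-0.04 ± 0.02), Clic6 (-0.03 ± 0.02) and Kl (-0.00065 ± 0.01) were read only as changes between the groups. Such changes average over the cKO arrays and cannot show whether these genes were higher on cKO array 1. Their group means, from 5.52 (Clic6 in cKO) to 5.72 (Folr1 in WT), also lay near or below the array median, where differences are compressed. In the list of meninges and choroid plexus 4 genes had a positive and 6 a negative change, and 7 of the 10 lay below the array median. The source of the high Ttr value was not tested. Without cKO array 1 the change was 0.38 ± 0.04 for Dcc (limma adjusted p = 0.00209) and 0.30 ± 0.06 for Slit3 (limma adjusted p = 0.0758).

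**Figure D5:**
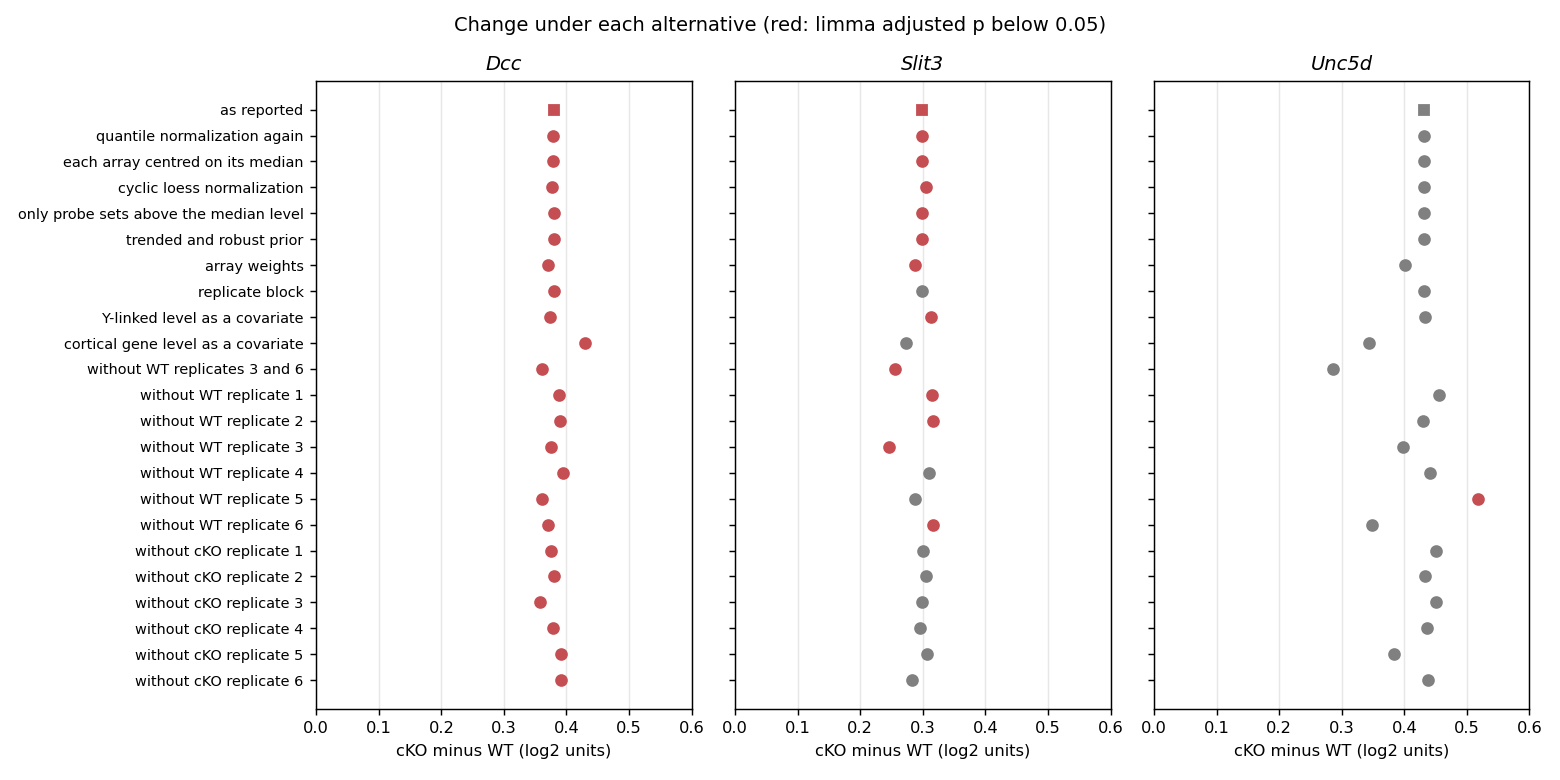
Change of Dcc, Slit3 and Unc5d, cKO minus WT in log2 units, as reported (square) and under other settings (circles), with red for a limma adjusted p below 0.05. Dcc stays between 0.36 and 0.43 and is red throughout, Slit3 stays between 0.25 and 0.32 and is red in some settings, and Unc5d spreads from 0.29 to 0.52 and is red without WT replicate 5.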

How the data were processed

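The deposited values are log2 expression made with RMA (version not given), per the submitters' processing notes. Array model, probe definition and genome build are not given in the sources used here. All 12 columns share 1 distribution, so a change common to all genes would not be visible. Of 25428 probe sets 24674 received a symbol from the platform annotation, updated by gene identifier through RefSeq (GRCm38.p6), and 0 had several symbols. Groups came from the sample titles, which call the samples biological replicates.

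The two-sided group comparison used lmFit and eBayes of limma 3.58.1 (R 4.3.3) on these log2 values for all probe sets, without covariates, and p values were adjusted by Benjamini-Hochberg over all of them. The script was tested on simulated data. Single values were compared by exact permutation. Named are all 10 members, called genes of the pathway and marker lists, the 2 with the smallest p in a pathway list without a call, and the 3 genes nearest in pattern to a called member. Flrt2, Flrt3, Rgma, Ntn4, Bcl11b, Isl1, Penk, Ttr, Folr1, Clic6, Kl and the microRNA genes fall outside this rule and were named after the data were seen. Members and lists were chosen with earlier results of these data known. Alternatives were 3 other scalings, array weights, a filter on dim probe sets, a replicate block, a robust trended prior, Y-linked or cortical gene levels as a covariate, arrays left out and a stricter threshold. The Y-linked covariate rested on 3 of 4 planned genes.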

Additional observations from a re-analysis of the deposited data

Results flagged for a closer look

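Unc5d stood high on cKO replicate 5, at 9.38 against 9.04 to 9.13 on the other cKO arrays. The gap to the nearest array was 0.727 of the range of the group, above Dixon's 95% critical value for 6 arrays. It was the 1 such case among 20 groups examined (10 genes in 2 groups), and chance gives about 1 in 20. Without this array the change of Unc5d was 0.38 ± 0.12 (limma adjusted p = 0.316).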

How the results depend on the processing

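Each gene was refitted in 23 alternatives. Dcc passed in 23, Slit3 in 12, Unc5d in 1, Nell2 in 20 and Rgmb in 9, each with its direction kept. Of the 10 genes, 2 were called as reported and 1 to 2 with 1 array left out. The count was 1 with the cortical level as a covariate and at an adjusted p below 0.01, Dcc in each case. Among the 52 other pathway genes the count was 2 as reported, 1 to 2 with 1 array left out, 4 with dim probe sets left out, 1 with the Y-linked or the cortical covariate and 0 at an adjusted p below 0.01. Over all probe sets 185 were called, 106 to 227 with 1 array left out, 278 with dim probe sets left out, 58 with the cortical covariate and 61 at an adjusted p below 0.01. The change of Ntn1 turned positive with array weights (0.013), with the cortical covariate (0.18) and without WT replicates 3 and 6 (0.11), and ran from -0.072 to 0.084 with 1 array left out. That of Robo2 ran from -0.055 to 0.011. The cause was not tested.

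The replicate number as a block left 1 of the 10 genes (Dcc, limma adjusted p = 0.0123), 0 of the 52 and 64 of all probe sets, and Slit3 missed the threshold (limma adjusted p = 0.0966). The titles do not say whether same-numbered arrays were paired in the experiment. The correlations of their deviations ran from -0.23 to 0.16 over 6 pairs, and 0 of 6 WT arrays matched best with their own number. These values do not settle whether the arrays were paired.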

Other observations

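WT array 3 departed from the other WT arrays across several of these genes. It was the lowest WT array for Slit1 (7.39), Slit3 (6.21), Robo1 (11.29) and Robo2 (11.64), and the highest for Ntn1 (9.23) and for Flrt3 (9.01). For Dcc it read 9.79, inside the range of the other WT arrays.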
